A study of Nematostella vectensis with 136 samples.

Results

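The 16 libraries of whole adult *Nematostella vectensis* from the LD arm at time points T6 to T9 fell into a high set of 9 and a low set of 7 by the level of a group of genes that moved together. The sets were selected on these counts: the high set (T6 replicates A and B, T7 C and D, T8 A and B, T9 A, C and D) was picked for high counts of a group that includes NVE12125, and the low set (T6 C and D, T7 A and B, T8 C and D, T9 B) holds the rest. They are 16 of the 136 libraries of the series. The other 120 libraries, which the choice did not use, serve below for the tests.

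*Nematostella vectensis*, the starlet sea anemone, is a burrowing cnidarian of estuaries with separate sexes, a diffuse nerve net and no brain. Its locomotion and its spawning follow light cues, and it is a standard animal for work on timekeeping in early-branching animals. RNA of the whole body pools every tissue, so fewer cells of a type and less RNA per cell cannot be told apart.

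All animals were adults. In the LD arm they lived through 1 month of light and dark phases before sampling, and in the DD arm through 1 month of darkness. Each arm gave 4 lettered replicates at each of 17 time points, 4 h apart. LD animals lost their light phases once the first 24 h were over, and sampling lasted another 44 h. By that scheme T6 is the last time point under the cycle and T7 to T9 are the first 3 without it. High and low libraries thus share arm, light history and time points. The labels give neither the sex of the animals, nor the number per library, nor whether replicates came from separate cultures, so a p-value here reflects spread among libraries, which may be technical. The gene identifiers could not be paired with names or positions, since the organism's table of gene names matched 0 of them. Genes are therefore given by identifier and no role is stated for any of them.

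Total counts were 326374 to 721750 per library in the 16 and 2185 to 749294 in the series, with a median of 538017. Only 3 libraries lay under 179339, a limit set relative to that median, and all 3 are outside the 16. Replicates of the 4 LD groups differed beyond sampling noise in every pair, at a chi-square of 5.036 to 17.22 for each degree of freedom. Values below are CPM, counts rescaled to a common effective library size. All 16 libraries came from lane 5.

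The 4 marker genes separated the sets with no library in between. NVE12125 had 1162 CPM at the median of the 9 high libraries, with 419 the lowest and 1549 the highest. In the 7 low libraries it had 0 at the median and 3.49 at most. The lowest of the high libraries was T6 A, at 419 CPM of NVE12125, and every other high library had at least 724 CPM. NVE25376 ranged from 51.9 to 543 CPM in the high set, with a median of 262.6, and reached 1.74 CPM in the low set. NVE11188 ranged from 72.6 to 783 CPM, median 343, against at most 2.41. NVE26091 ranged from 31.1 to 343 CPM, median 153.8, against at most 2.41. The sum of NVE12125 counts was 5388 over the high set and 5 over the low set.

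A marker score, the mean log2 CPM of the 4 genes, put the libraries on one axis. It was 6.48 in T6 A, the high library nearest to the low set, and 2.36 in T7 A, the low library nearest to the high set. The highest score was 9.31, in T9 C, and the median of the high set was 8.52. Low libraries spanned 2.00 to 2.36. The 16 DD libraries of T6 to T9 spanned 2.00 to 4.77, so none reached the high set. DD T8 A (4.77), DD T8 B (4.22) and DD T7 B (3.03) lay above every low library. Set means differed by 6.15 score units.

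**Figure D1:**
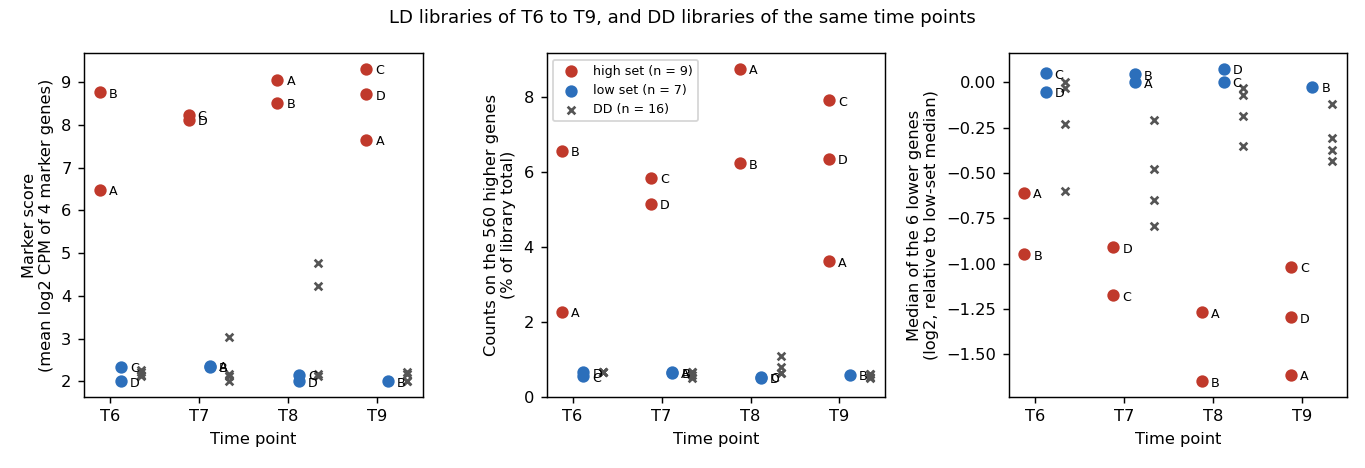
Each LD library of T6 to T9 by time point, lettered by replicate, with the 16 DD libraries of the same time points as crosses. Left: marker score (mean log2 CPM of the 4 markers), at least 6.48 in the high set and at most 2.36 in the low set. Middle: percentage of the library's counts on the 560 genes listed as higher, from 2.27 to 8.77 in the high set. Right: median of the 6 genes listed as lower, as log2 relative to the median of the low set, which was -0.61 in T6 A and -1.65 in T8 B.

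Few genes were lower in the high set with every high library below every low library. A gene was listed when its log2 difference, fitted with time point as a block, was at least 1 in size and the sets did not overlap. By that rule 6 of 10257 genes (0.0585%) were lower and 560 (5.46%) were higher. Without the demand on size, 17 genes (0.166%) were lower in all 9 high libraries than in any low one, against 582 higher. The sets come from these libraries, so these differences are a description and carry no test. The median log2 difference of all genes was -0.04.

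**Figure D2:**
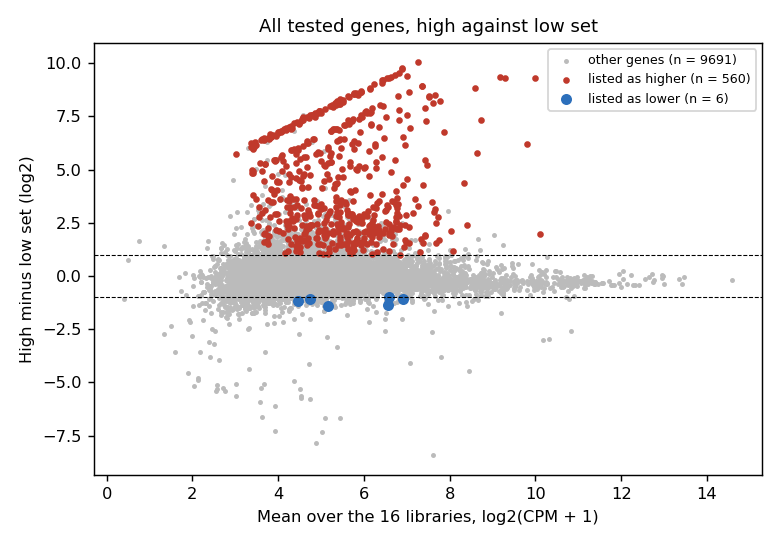
Log2 difference between high and low set for all 10257 genes against their mean level in the 16 libraries on a log2(CPM + 1) scale. Dashed lines mark a difference of 1 in either direction, red points the 560 genes listed as higher and blue points the 6 listed as lower. The blue points lie between -1.42 and -1.005, while red points reach 10.03, a fitted value of a gene with no count in the low set.

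The 6 lower genes were all expressed in every one of the 16 libraries. Only 3 of them are named by the rule for named genes, and all 6 are given here, the rest chosen after their values were seen. NVE3157 had the largest difference. Its high libraries had 38.1 (T6 A), 38.1 (T6 B), 18.7 (T7 C), 14.4 (T7 D), 11.4 (T8 A), 9.27 (T8 B), 16.5 (T9 A), 17.5 (T9 C) and 16.2 CPM (T9 D). Its low libraries had 38.5 (T6 C), 63.1 (T6 D), 43.6 (T7 A), 56.0 (T7 B), 38.6 (T8 C), 83.3 (T8 D) and 52.4 CPM (T9 B). The sets touched at T6, where both high libraries were just under the lowest low ones in CPM, and stood apart from T7 on. In raw counts T6 A and T6 B had 22 each and T6 C had 16, so their order at T6 rested on the scaling. The high libraries held only 3 to 22 counts of this gene, so a handful of counts separates neighbouring libraries. The log2 difference was -1.42 ± 0.27 (SE).

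NVE4331 had 62.3 CPM at the median of the high set, with 30.9 the lowest and 85.03 the highest. In the low set the lowest was 86.5, the median 149.3 and the highest 186.6 CPM. The gap between the sets was narrow, and it lay between T9 C and T8 D. The log2 difference was -1.34 ± 0.24. NVE4012 had 37.1 to 135 CPM in the high set, median 62.7, against 148.3 to 219.1, median 163.1, and a log2 difference of -1.07 ± 0.22. Its highest high libraries were T6 A at 135 and T7 D at 120 CPM. NVE8526 had 52.5 to 95.1 CPM, median 66.1, against 104 to 160, median 132.6, a log2 difference of -1.005 ± 0.16.

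The remaining 2 were less abundant. NVE16627 had 6.07 to 18.5 CPM in the high set, median 13.0, and 20.4 to 43.3 CPM in the low set, median 31.4, with a log2 difference of -1.16 ± 0.25. It rested on 65 counts over the 9 high libraries and 100 over the 7 low ones. NVE5080 had 6.17 to 25.0 CPM, median 20.2, against 28.9 to 47.8, median 34.9, a log2 difference of -1.10 ± 0.28. With so few counts per library, neighbouring libraries of these genes differ by a handful of counts.

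In the DD libraries of T6 to T9 the median of each of the 6 genes lay between the medians of the LD sets. NVE3157 had 43.3 CPM at the DD median and 9.53 to 74.5 in single DD libraries, a range wider than the gap between the sets. NVE4331 had a DD median of 101 CPM, NVE4012 of 114, NVE8526 of 122, NVE16627 of 29.5 and NVE5080 of 29.0 CPM.

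The list of 6 depended on how libraries were scaled, and its length on which libraries were included. All 6 genes were lower in the high set under every alternative run for that difference. That direction was largely fixed by the demand that the sets do not overlap, so it is no check of the list. RLE scaling left 2 listed genes, where the sets of the other 4 overlapped at differences still beyond -1. Library size alone also left 2, and there the differences of NVE4012 and NVE8526 were smaller in size than 1. The scaling factors had a median of 1.07 in the high set and 1.00 in the low set. Leaving out 1 library gave 5 to 16 lower genes: 16 without T6 D, 14 without T8 D, 12 without T9 D, 11 without T6 A, T6 C or T9 B, and 10 without T7 A, T7 B or T8 A. Of the original 6 genes, 4 to 6 stayed listed in each of these runs. Without T6 there were 75 lower genes, 5 of the original 6 among them. With fewer libraries the sets overlap less readily, so longer lists follow in part from the rule itself.

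**Figure D3:**
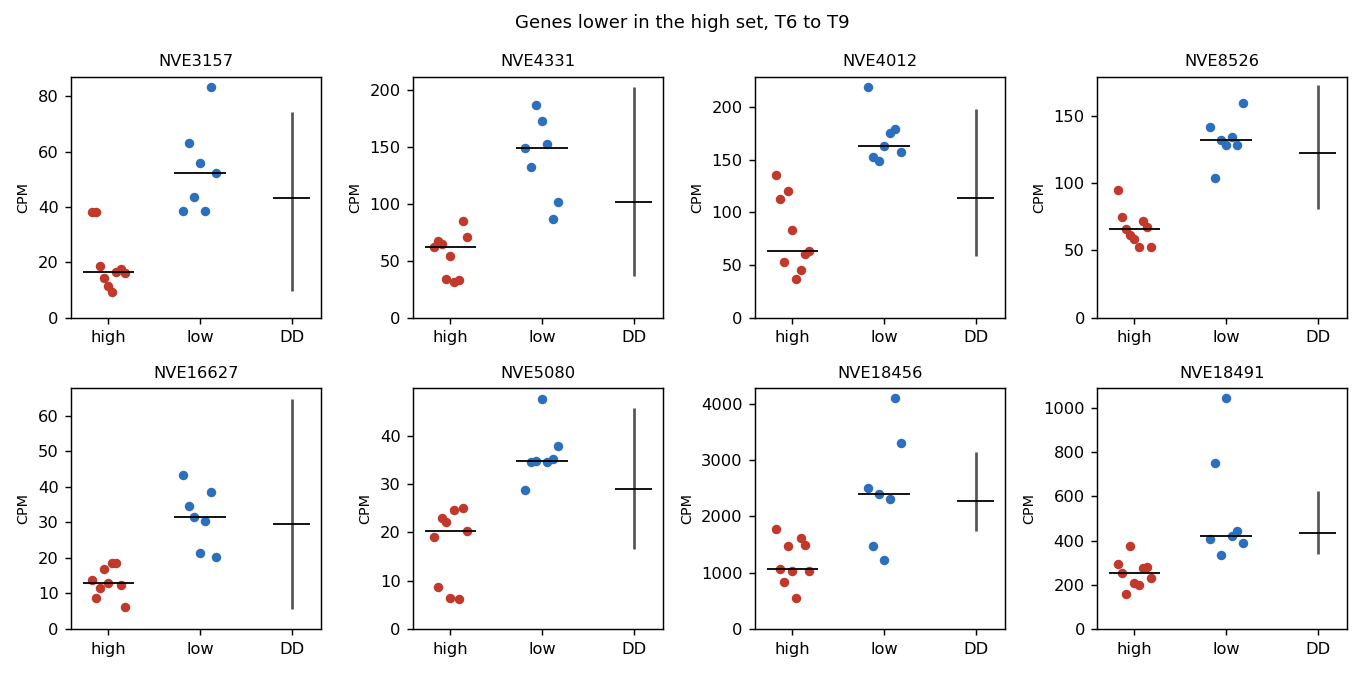
CPM of 8 genes lower in the high set. Points are the 9 high and 7 low LD libraries of T6 to T9 with the set's median as a line, and the grey bar spans the 16 DD libraries of the same time points with their median. The sets do not overlap for the first 6 genes and overlap for NVE18456 and NVE18491.

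By size alone, 373 genes (3.64%) were lower by at least 1 on the log2 scale and 1124 (11%) were higher. The median of the 373 was -1.25, and their median level in the low set was 20.3 CPM, close to the 22.6 CPM of all genes. The genes were chosen by their mean difference, which fixes the direction of what follows. The median over the 373 was -0.72 at T6, -0.997 at T7, -1.10 at T8 and -1.07 at T9, where the low set is 1 library. The medians of all genes at those times were between -0.01 and 0.02. The share of counts on the 373 genes was 0.815% to 1.38% in high libraries and 2.16% to 3.34% in low ones.

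These 373 genes held different patterns. For 59 of them a single low library carried most of the set's CPM, and for 39 of the 59 that library was T6 D. T6 D was the highest low library for 81 of the 373 genes and T8 D for 78. Taking a log2 difference of -3 as the limit, chosen after the values were seen, 41 genes lay at or beyond it and 332 had smaller reductions.

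The 332 had a median of 8.29 CPM in the high set and 19.5 CPM in the low set. The median of the DD libraries of T6 to T9 lay above the high-set median in 301 of the 332 genes, but above the low-set median in 103. The median log2 difference of the DD median from the low-set median was -0.16, while that of the high-set median was -0.95. The median DD level of these genes was thus nearer to the low set.

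A pair of abundant genes, chosen after their values were seen as the highest among the 373 with a negative slope past the threshold below, overlapped between the sets. NVE18456 had 550 to 1773 CPM in the high set, median 1065, and 1232 to 4094 CPM in the low set, median 2397. Low libraries T7 B (1232) and T6 D (1469) lay within the high range. The DD median was 2279 CPM, and no DD library was under 1733. The log2 difference was -1.09 ± 0.26. NVE18491 had 158.03 to 376 CPM, median 253.2, against 337 to 1044, median 423, a log2 difference of -1.06 ± 0.24. One high library, T7 D at 376 CPM, lay above the lowest low library, T7 A.

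The 41 genes differed in kind. Their median level was 0.337 CPM in the high set and 25.2 CPM in the low set, and 13 had no count in any high library. Low libraries did not share them evenly. Of the 41 genes, 37 were above 10 CPM in T6 D and 34 in T7 B, 14 in T8 C, 13 in T9 B, 6 in T8 D, 5 in T7 A and 3 in T6 C. Every high library had 2 to 4 of them above 10 CPM, which is within the range of the low libraries T6 C, T7 A and T8 D or just under it. NVE4301 shows the pattern. It had 1662 CPM in T6 D, 1237 in T7 B, 119 in T9 B, 50.8 in T8 C, 16.0 in T8 D, 1.74 in T7 A and 0 in T6 C. In the high set it was 0 in 6 libraries and at most 5.00 CPM. The sets overlap for this gene, because some low libraries also lacked it.

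Libraries outside the 16 with these 41 genes present had low marker scores. Of 117 such libraries above the depth limit, 24 (14 LD, 10 DD) had at least 10 of the 41 genes above 10 CPM, and their highest marker score was 2.50. The most were 39 in LD T5 D and 38 in LD T11 C. Another 17 libraries had a marker score above 4, and in these at most 6 of the 41 genes exceeded 10 CPM, median 4. The median of the remaining libraries was 5, so most libraries with a low marker score also had few of these genes above 10 CPM.

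**Figure D4:**
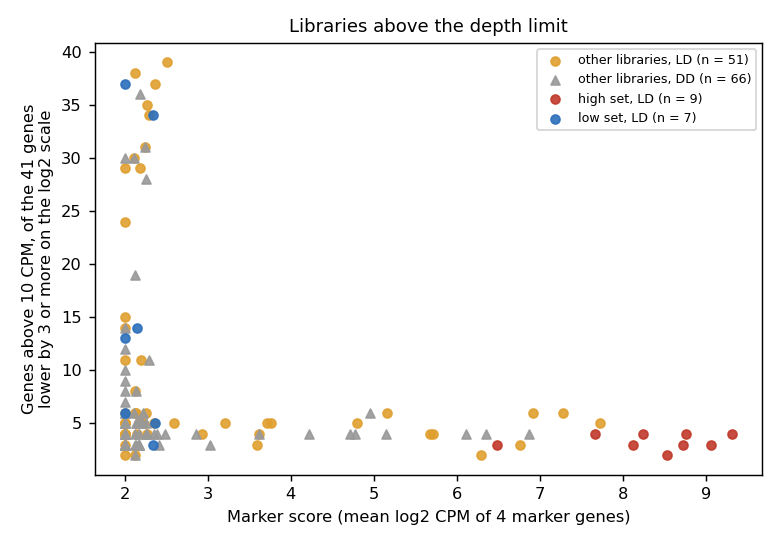
Number of the 41 genes above 10 CPM against the marker score in each library above the depth limit, with circles for LD and triangles for DD. Libraries with 10 or more of the 41 genes all have scores of at most 2.50, while libraries with a score above 4 have at most 6.

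The genes listed as higher formed the larger body of the difference. The median log2 difference of the 560 was 3.63, from 1.00 to 10.03, and their median level was 66.4 CPM in the high set and 3.47 CPM in the low set. The top of that range is the fitted value of NVE241, which had no count in the low set, so it depends on the prior count. With 101 genes that had 0 counts in the low set placed at their lower bound, the median was also 3.63. At least 100 CPM in the high set was reached by 30.4% of the 560, and 32.9% exceeded 10 CPM in the low set. Together these genes took 2.27% (T6 A) to 8.77% (T8 A) of the counts of a high library, with a median of 6.24%. They took 0.501% to 0.659% in low libraries and 0.492% to 1.09% in the DD libraries of T6 to T9. The median difference at T6, T7, T8 and T9 was 2.13, 2.54, 3.13 and 2.80 on the log2 scale.

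NVE241 and NVE15606 had the largest log2 differences in the edgeR fit, where values of genes with no count in the low set depend on the prior count. This order did not hold by other methods. Both DESeq2 and limma-voom gave NVE12125 and NVE20622 larger differences than either gene. NVE241 had 55.3 to 508 CPM in the high set, median 232.7, and no count in any low library. Set against a floor of 3 counts over the low set, 0.927 CPM, it was at least 284-fold higher. NVE15606 had 60.5 to 340 CPM, median 231.1, no count in a low library, and was at least 224.2-fold higher on the same floor. Floors and intervals here cover counting error only.

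NVE20622 and NVE2701 had the largest differences in CPM. NVE20622 had 406 to 3414 CPM, median 1686, against 0 to 9.61 CPM in the low set, a log2 difference of 9.29 ± 0.54. NVE2701 had 681 to 2403 CPM, median 1572, against 0 to 94.2 CPM, a log2 difference of 6.197 ± 0.76. T7 A at 94.2 and T8 D at 83.3 CPM were far above the other low libraries for NVE2701, though still below every high one.

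T6 A had the lowest value of the high set for each of the 4 markers and for NVE241, NVE15606, NVE20622, NVE2701 and NVE3298. It was also the high library with the smallest median difference over the 6 lower genes, -0.61, and over the 373, -0.53. T8 B had the most negative medians, -1.65 and -1.14. The number of genes detected at a common depth of 200000 counts was 13328 to 14157 in the high set, median 13905, and 12468 to 13653 in the low set, median 13105. The high set overlapped the low set in this measure. Its part in the differences was not tested.

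The tests used the 120 libraries outside LD T6 to T9. For each gene a slope on the marker score was fitted with the 30 combinations of arm and time point as covariates, by edgeR's quasi-likelihood test with Benjamini-Hochberg adjustment over 10253 genes, the 4 markers left out. The question was whether a gene listed in the 16 libraries moves with the markers elsewhere too. Of all genes, 735 (7.17%) had a positive slope and 1.39% a negative one past an adjusted p of 0.05.

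Genes listed as higher rose with the marker score outside the 16 libraries. A positive slope passed the test in 478 of 556 listed genes (86%) and a negative one in 0, with a median slope of 0.46 on the log2 scale per unit of score. The sign was negative in 2 of the 556. By other settings with the same filter, DESeq2 and limma-voom called 419 and 479 of them. NVE241 had a slope of 1.70 ± 0.07 (adjusted p = 9.07e-37) and NVE3298 one of 1.70 ± 0.07 (adjusted p = 4.22e-34), the largest of all genes tested. NVE3298 ranged from 36.3 to 430 CPM in the high set with no count in the low set, and was at least 202.6-fold higher. Within lane 5 alone 357 of the 556 were called and within lane 7 alone 445. The 478 make up 65.0% of the 735 positive calls.

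The slopes of the lower genes were smaller in size, as were their differences in the 16 libraries, and the 2 shares of calls were not tested against each other. Of the 6 listed genes only NVE3157 fell with the marker score past the threshold, with a slope of -0.15 ± 0.04 (adjusted p = 0.00776). All 6 slopes were negative, and 5 had an unadjusted p under 0.05. In simulated counts the same test called 8.11% of 37 genes with a true slope of -0.1 and 62.5% of 40 with -0.2. A missing call at such sizes thus does not show that a slope is absent. The slope was -0.13 ± 0.04 for NVE5080 (adjusted p = 0.0573), -0.11 ± 0.04 for NVE16627 (0.0748), -0.09 ± 0.04 for NVE4012 (0.102), -0.11 ± 0.05 for NVE4331 (0.179) and -0.02 ± 0.03 for NVE8526 (0.723). The call of NVE3157 was lost in 7 of 25 alternatives, with adjusted p from 0.00665 to 0.857 and slopes from -0.22 to -0.06 over all of them. Without the 6 outside libraries listed below, its slope was -0.18 and 0 of the 6 genes passed the test, as was the case without replicate A and without replicate D, and without those libraries edgeR had 1369 genes of all at an unadjusted p under 0.05.

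Of the 373 genes lower by size, 37 (9.92%) had a negative slope past the threshold and 0 a positive one, beside 1.39% negative calls among all genes. That share of all genes was 0.712% with RLE scaling and 0.868% with library size alone. Their slopes were negative in 306 of 373 genes, against 5670 of all 10253. The 41 near-absent genes gave 19 of the 37 calls (46.3% of the 41), and the 332 others gave 18 (5.42%). NVE18456 fell with the score, with a slope of -0.10 ± 0.03 (adjusted p = 0.0174) and NVE18491 with one of -0.09 ± 0.03 (adjusted p = 0.00932). Either call was lost in 13 of 25 alternatives, with adjusted p from 0.0101 to 0.898 for NVE18456 and from 0.00836 to 0.444 for NVE18491. Their slopes stayed negative over these alternatives, from -0.14 to -0.04 for NVE18456 and from -0.0986 to -0.061 for NVE18491. Fewer of the 373 were called in most subsets: 7 without replicate A, 8 without replicate D, 22 without replicate C, 7 in lane 5 alone, 6 in lane 7 alone, 15 in LD libraries alone and 0 in DD libraries alone, where 0.117% of all genes were negative and 1079 had an unadjusted p under 0.05.

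The 2 most negative slopes over all genes were those of NVE12713 and NVE4301. NVE4301 had a slope of -1.997 ± 0.43 (adjusted p = 0.000247) and lost its call in 2 of 24 alternatives, with adjusted p from 3.27e-05 to 0.211. NVE12713 had a slope of -3.08 ± 0.84 (adjusted p = 0.00887) and lost its call in 7 of 24, with adjusted p from 0.00548 to 0.519. NVE12713 was at most 3.29 CPM in the 16 libraries and up to 1818 CPM outside them, where only a few libraries had it.

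Across the 10253 genes the difference in the 16 libraries and the slope outside them had a Pearson correlation of 0.89 and a Spearman correlation of 0.54. Genes are not independent replicates, and both quantities share the marker genes as their axis. Of the genes with a negative slope past the threshold, 91.6% also had a negative difference in the 16 libraries, and 732 of the 735 with a positive slope had a positive one. Of all genes, 53.3% had a negative difference.

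**Figure D5:**
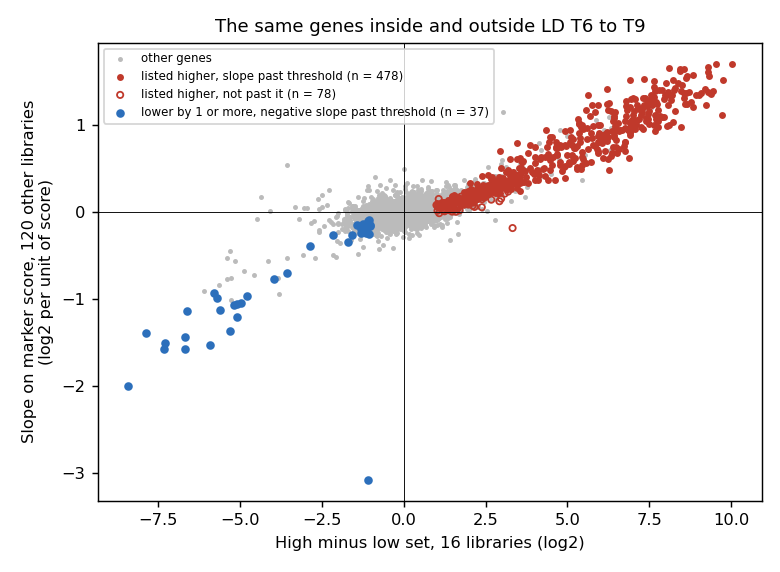
For each of 10253 genes, the log2 difference between high and low set in the 16 libraries (horizontal) and the slope on the marker score in the 120 other libraries (vertical, log2 per unit of score). Red filled points are the 478 higher genes whose slope passed the threshold, open points the 78 that did not, and blue points the 37 genes lower by at least 1 with a negative slope past it.

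Single libraries outside the 16 resembled the high set to different degrees. More than 50% of the 560 higher genes exceeded their highest low-set value in 15 libraries, 9 of 51 LD and 6 of 66 DD. The most alike were LD T14 A with 97.3% and a marker score of 7.72, LD T17 C with 88.8%, DD T5 B with 87.0%, LD T16 D with 85.9%, LD T17 A with 84.6% and DD T12 A with 76.8%. The median outside library had 14.3%. In the 15 libraries the 373 lower genes had a median of -0.34 relative to the low set, from -0.79 in LD T14 A to 0 in DD T3 B. That median was -0.12 over the other outside libraries, and 13 of the 15 lay below it. Of the 6 listed lower genes, the 6 most alike libraries had 3 to 5 below the lowest low-set value, median 4.5. The other 111 outside libraries had 0 to 6, median 2, so such values also occurred at low marker scores.

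Fewer slopes passed the test without those 6 libraries. Their marker scores were 6.35 to 7.72, against at most 6.29 in the other 111. Leaving them out shortens the range of the score, and they were picked on the higher genes, so a drop in calls was built in. Without them, positive slopes were called in 3.73% of all genes and in 328 of the 556 higher genes, and negative ones in 0.673% of all genes and in 22 of the 373.

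The slopes were then compared between arms. The interaction of arm and marker score passed the adjusted threshold in 0 genes (0%) by edgeR, and also in 0 by limma-voom and with the replicate letter in the fit. The unadjusted p was under 0.05 in 399 of 10253 genes, 40 of them among the 556 higher and 32 among the 373 lower genes. A slope past the threshold in LD libraries and not in DD libraries is thus not shown to differ between the arms.

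The last comparison asked whether the listed genes differed between the arms at time points the choice did not use. Over T1 to T5, 34 genes (0.331%) were higher and 3 (0.0292%) lower in LD than in DD. None of the 556 higher, 6 lower or 373 lower genes was among them by edgeR. At an unadjusted p under 0.05 there were 9 of the 556, 0 of the 6 and 33 of the 373, beside 683 of all genes, and limma-voom and DESeq2 also called 0 of the 556. Where every library of an arm and time point is at 0, edgeR's fit of the mean gives no usable value, and 357 of the 556, all 6 and 332 of the 373 were free of such groups. Over these, the median differences were -0.06, 0.16 and 0.02 on the log2 scale.

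Over T10 to T17, 17 genes (0.166%) were higher and 28 (0.273%) lower in LD. With RLE scaling the split was 17 to 18. Of the 556 higher genes 9 (1.62%) were higher in LD than in DD and 0 lower. Over the 337 of them with counts in every group, 8 were called, the median difference was 0.29 and 300 were positive, beside a median of -0.001 for all such genes. Of the 6 lower genes 0 were called by edgeR, with 1 at an unadjusted p under 0.05, and of the 373 genes 2 fell.

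The 9 calls depended on single replicate letters. NVE16839 had a median of 0 CPM in both arms, at most 35.8 CPM in 31 LD libraries and 12.4 in 32 DD libraries, and exceeded 10 CPM in 4 LD libraries and 1 DD library (adjusted p = 0.0284). It is one of the genes with whole groups at 0, and its call was lost in 8 of 12 alternatives, with adjusted p from 0.021 to 1. NVE521 had a median of 6.01 CPM and a highest value of 324 in LD, against 1.66 and 105 in DD (adjusted p = 0.0304). Its call was lost in 6 of 13, with adjusted p from 0.00453 to 0.736. Of the 9, 0 were called without replicate C or without replicate D. The number was also 0 with the marker score in the fit or without the 6 libraries above. Those 6 stand out by high levels of the listed higher genes, and these genes move with the score. Either setting thus takes out the signal itself and cannot tell how firm the calls are.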

How the data were processed

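The deposited data are a single table of raw counts: 24384 gene models in rows, 136 libraries in columns, and whole numbers that the authors did not normalize. Per the submitters' processing notes Bowtie2 was used, at no named version, and per the labels the genome was that of Putnam et al. How reads were counted, on which strand and on which models is not given in the sources used here, so similar or overlapping genes may share reads.

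Counts were analysed with edgeR 4.0.16 in R 4.3.3: filterByExpr over 34 groups of arm and time point (10257 genes), TMM factors and glmQLFit. High minus low was fitted with time point as a block and given without a test. The slope, its interaction with arm, and LD minus DD were tested with glmQLFTest in the 120 other libraries, 1 fit of 30 groups each. The prior count of the marker score was 2. The members, lists and tests were chosen with earlier results of these data known. Named were the markers and, per comparison, at most 2 genes in each direction with the largest differences (at least 20 CPM) or slopes; exceptions are said to be such. DESeq2 1.42.0, limma-voom (limma 3.58.1), other scalings, filters and subsets were tried. Fitted log2 values of genes at 0 in whole groups depend on the prior count. They are not given, except for that of NVE241 as the top of the range of the higher genes. The slope, LD minus DD and high minus low fits were tested on simulated data with known answers. The interaction with arm and the rule for listing genes were not.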

Additional observations from a re-analysis of the deposited data

Results flagged for a closer look

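Of 52 groups of values tested for a lone extreme value, 6 held one. A group was a named gene or a library measure, such as marker score or total counts, in the high or the low set. Genes at 0 in every library of a set were counted too, though they hold no extreme value. The limits used flag about 1 in 20 groups by chance where values vary evenly about a mean, a rate that need not hold here, where a single library with a few counts stands against others at or near 0. In the low set, NVE25376 was at 1.74 CPM in LD T7 A, NVE26091 at 2.41 CPM in LD T6 C and NVE12713 at 3.29 CPM in LD T7 B, with the other 6 libraries at 0. NVE16839, a higher gene, was at 8.14 CPM in LD T6 D and at 0 in the other low libraries. In the high set, NVE12713 was at 2.02 CPM in LD T9 D and at 0 elsewhere. NVE4301 was at 5.00 CPM in LD T9 C, with the next library at 2.02.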

How the results depend on the processing

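The number of genes listed as higher was 560, and 116 with at least 10 counts in most libraries or 1124 where overlap of the sets was allowed; leaving out 1 library gave 561 to 727. The number listed as lower was 6, and 3 with the 10-count filter, 2 with RLE factors, 2 with library size alone, 0 at a log2 difference of 2, 373 with overlap allowed and 75 without T6; leaving out 1 library gave 5 to 16. Runs with fewer libraries loosen the demand for no overlap, so longer lists follow in part from the rule. None of the 16 libraries is shallow, so that setting gives no value for them. The median difference of all genes moved from -0.04 to 0.04 with library size alone.

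Negative slopes passed the test in 1.39% of all genes, and in 0.6% with the 10-count filter, 0.751% with DESeq2, 0.712% with RLE factors, 0.868% with library size alone, 0.332% with no filter, 0.692% in LD alone, 0.117% in DD alone, 0.293% in lane 5, 0.302% in lane 7, 0.673% without the 6 libraries and 0.585% without these and the shallow ones. Positive slopes passed it in 7.17%, and in 3.42% with the 10-count filter, 3.61% in DD alone, 4.12% in lane 5 and 3.73% without the 6 libraries, with or without the shallow ones (that last setting and the arm comparisons without the 6 libraries were added after seeing the data). Leaving out a replicate letter or single library gave 0.419% to 1.38% negative and 5.3% to 7.22% positive. Of the higher genes 478 were called, 86 with the 10-count filter, which tests only 111 of them, and 416 to 477 on leaving out replicates. Of the 6 lower genes 1 was called, 0 in DD alone, lane 5, lane 7 and without the 6 libraries, with or without the shallow ones, and 2 with limma-voom and with the replicate block; leaving out replicates gave 0 to 2. Of the 373, 37 were called, 5 with the 10-count filter, which tests only 125 of them, 0 in DD alone, 21 with DESeq2, 7 in lane 5, 6 in lane 7, 15 in LD alone, 18 with limma-voom, 22 without the 6 libraries and 20 without these and the shallow ones; leaving out replicates gave 7 to 38. The one reversal was the slope of NVE8526, at 0.017 in DD alone.

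Before removal, 3 genes were lower in LD, 1 with no filter and 6 without shallow libraries; leaving out replicates gave 1 to 3 lower and 16 to 26 higher. After removal, 28 were lower, 18 with library size alone or RLE factors, 16 with limma-voom, 11 with the marker score in the fit, 14 with no filter and 14 without the 6 libraries (7 to 25 on leaving out replicates). Higher were 17, 30 with DESeq2, 4 with limma-voom, 4 with the marker score, 11 with no filter and 4 without the 6 libraries (1 to 18). Of the listed higher genes 9 were called, 4 with the 10-count filter, 1 with limma-voom, 0 with the marker score, 5 with no filter and 0 without the 6 libraries (0 to 8). Of the 373, 2 were lower in LD, 1 with library size alone, no filter or RLE factors, and 0 with the marker score or without the 6 libraries (0 to 2). The causes were not tested, beyond fewer samples or genes in a setting.

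Residual correlations did not set same-letter replicates apart: their median was -0.0035, with 10.9% over 0.1, against -0.0027 and 11% for other letters. Whether a letter stands for a shared culture or handling cannot be told from this measure. With the replicate block, 2 of the 6 lower genes had a negative slope past the threshold in place of 1. At these depths the rarer lower genes rested on about 100 counts or fewer per set.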
